A study of Homo sapiens with 2 samples.

Results

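Complement C3 and 8 related genes of the complement system were followed in a human cell line of acute monocytic leukaemia, THP-1. The members are C3, C3AR1, C5, C5AR1, CFP, CFD, CLU, CR1 and C1QBP, and all 9 were found by name among 30856 gene rows, of which 22880 carried a symbol. They were chosen by gene name after the difference of C3 between these same libraries was known, so the levels and ratios of the members are a description and carry no test. Poly(A) RNA was measured in 1 parental library, from untreated cells, and in 1 resistant library, from THP-1 cells that tolerate Ara-C. Ara-C, or cytarabine, is a nucleoside analogue used against acute myeloid leukaemia. The selection raised the drug in steps from 5 nM to 10 µM, until the cells doubled as fast as untreated ones. Whether the resistant line is 1 clone, and whether the drug was present at harvest, is not given in the sources used here. With 1 library per group there is no replicate check of any difference below. The libraries held 57434972 (parental) and 58285463 (resistant) counts.

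Complement is a cascade of plasma proteins that tags and lyses microbes. C3 is its central protein: its cleavage releases C3a, a small peptide that signals through the receptor C3AR1, and leaves C3b, which binds covalently to surfaces. In the alternative pathway, factor D (CFD) cuts factor B bound to C3b, and properdin (CFP) stabilises the C3-cleaving enzyme that results. C5 is cleaved next, into C5a, the ligand of C5AR1, and C5b, which begins the membrane attack complex. Most plasma complement comes from the liver, but monocytes and macrophages also make several components, C3 and CFD among them.

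C3 was the member that differed most between the libraries. Its level was 1.05 FPKM in parental and 5.57 FPKM in resistant cells (fragments scaled to transcript length and to library size, a level per length). These levels came from 590 and 3142 counts. Relative to the library totals, C3 was 5.25-fold higher in resistant cells (95% counting interval 4.80 to 5.74). That interval, like all those below, is an exact Clopper-Pearson interval which covers counting error only and no spread between cultures. On the scale used to compare genes, log2((FPKM resistant + 1)/(FPKM parental + 1)), below the log2 ratio, C3 stood at 1.68. In the parental library 10922 of the 11388 expressed genes (a symbol and at least 1 FPKM in at least 1 library) had a higher level than C3, and in the resistant library 5942 did. C3 thus moved from the low end of the expressed genes to the middle.

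C3 lies on chromosome 19 from 6677704 to 6730562 (minus strand, GRCh38, as in the deposited table). GPR108, a gene on the same strand, shares 649 bases with this span, at the upstream end of C3. GPR108 was at 8.50 FPKM in parental and 7.18 in resistant cells, with 1825 and 1570 counts. It was thus lower where C3 was higher (0.848-fold, 0.792 to 0.907). Summed over both genes, counts were 2415 in parental and 4712 in resistant cells, 1.92-fold higher (1.83 to 2.02). On summed FPKM, where GPR108 weighs more per count, the log2 ratio was 0.38.

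CFD, the serine protease that activates the alternative pathway, was the most abundant member in resistant cells. It was at 44.1 FPKM in parental and 78.6 FPKM in resistant cells, from 3565 and 6462 counts. The count fold was 1.79 (1.71 to 1.86) and the log2 ratio 0.82, which did not reach the rule of size of at least 2-fold (1 or more, or -1 or less, on this scale). Among 964 expressed genes with a mean FPKM within 2-fold of that of CFD, CFD included, 6 others had a log2 ratio at least as high and 9 lay as far or farther in the lower direction. For C3 the same comparison held 4439 genes, of which 13 others were at least as high and 16 as far or farther lower. CFP, the stabiliser of the alternative pathway enzyme, was scarce. It stood at 0.27 FPKM in parental and 0.50 in resistant cells, with 103 and 193 counts, a fold of 1.85 (1.45 to 2.37). An annotated gene without a symbol overlaps CFP on the same strand and had 0 and 9 counts. C3, CFD and CFP were thus all higher in the resistant library, but CFP was below 1 FPKM in both libraries.

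**Figure D1:**
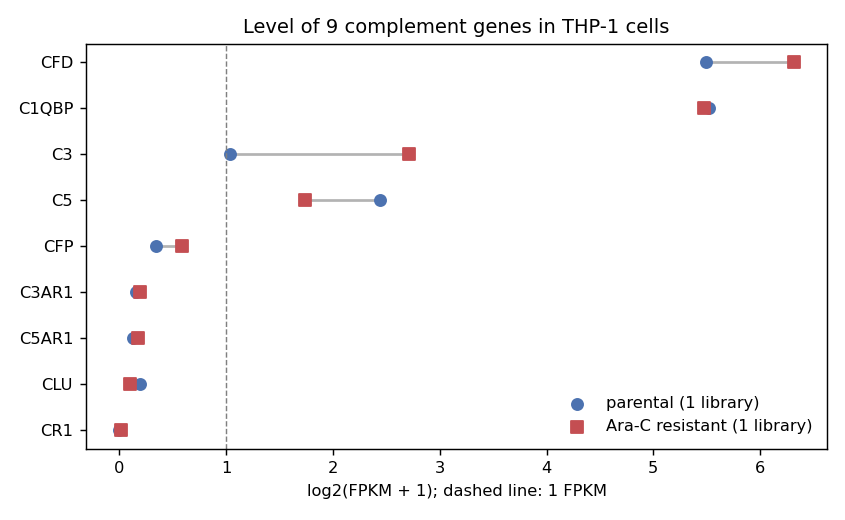
Level of each member as log2(FPKM + 1) in the parental library (blue circles) and the resistant library (red squares), with 1 library per group and no error bars; the dashed line marks 1 FPKM. C3 and CFD lie farther right in resistant cells and C5 farther left, C1QBP nearly coincides, and 5 members lie below 1 FPKM in both.

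C5, from which the membrane attack complex starts, went in the opposite direction to C3. It was at 4.43 FPKM in parental and 2.34 in resistant cells, from 1933 and 1038 counts. That is 1.89-fold lower in the resistant library (1.75 to 2.04), with a log2 ratio of -0.70. Among 4471 expressed genes of similar level, C5 included, 160 others had a log2 ratio at least as low and 87 lay as far or farther in the higher direction. The order of the 2 components was reversed: per length, C3 stood at 0.237 times the level of C5 in parental cells and at 2.38 times in resistant cells. CFD stood at 42.0 times the level of C3 in parental and 14.1 times in resistant cells.

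The start regions of CFD and C5 are shown because, besides C3, these were the expressed members that differed most, and in opposite directions. RefSeq promoter windows (GRCh38.p14) were matched for 7 of the 9 members. C3 and CLU were not among them. Each window runs from 250 bases before to 50 bases after an annotated start and is printed 5′ to 3′ on the gene's strand. The windows are chr19:859414-859713 (plus strand) for CFD, chr9:121050226-121050525 (minus strand) for the C5 start inside the span of the deposited table, and chr9:121074816-121075115 (minus strand) for a second C5 start upstream of that span. Capitals mark matches to the motifs named in the next paragraph.
CFD: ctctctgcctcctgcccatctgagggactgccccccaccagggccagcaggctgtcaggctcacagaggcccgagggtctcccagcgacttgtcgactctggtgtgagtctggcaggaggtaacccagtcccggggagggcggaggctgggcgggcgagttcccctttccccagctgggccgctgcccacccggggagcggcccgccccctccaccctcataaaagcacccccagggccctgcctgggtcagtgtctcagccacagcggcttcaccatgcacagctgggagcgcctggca
C5, start within the table's span: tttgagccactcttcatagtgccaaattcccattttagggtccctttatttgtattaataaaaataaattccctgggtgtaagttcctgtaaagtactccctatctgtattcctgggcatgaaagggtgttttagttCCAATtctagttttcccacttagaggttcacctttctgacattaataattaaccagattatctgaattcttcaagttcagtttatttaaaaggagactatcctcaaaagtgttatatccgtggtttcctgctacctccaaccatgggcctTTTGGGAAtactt
C5, upstream start: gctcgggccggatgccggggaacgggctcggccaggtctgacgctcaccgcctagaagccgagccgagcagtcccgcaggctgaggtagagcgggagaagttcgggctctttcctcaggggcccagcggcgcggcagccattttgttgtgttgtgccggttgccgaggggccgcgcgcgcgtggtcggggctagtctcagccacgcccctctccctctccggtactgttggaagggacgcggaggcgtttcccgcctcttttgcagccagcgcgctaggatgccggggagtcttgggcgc

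The CFD window held 69.7% G and C with 13 CpG dinucleotides. The C5 window within the span was poor in both, with 37% and 1, whereas the upstream C5 window held 69.3% and 33. The medians over all 35116 windows were 58.7% and 14. Both strands were searched for 4 motifs, which do not overlap in the windows printed. The C/EBP motif TTNNGNAA had a match in 36.8% of all windows. The AP-1 motif, spelled TGANTCA, had one in 7.71%. The TATA box was searched as TATAAA and had a match in 11.5% of windows. The CCAAT box was present in 34.6%. The C5 window within the span had 1 match to the C/EBP motif and 1 to the CCAAT box. The CFD and upstream C5 windows had 0 matches to these 4 motifs. A match is a description of the letters, and the libraries do not tell which C5 start was in use.

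The followed receptors of the cleavage products had little RNA. C3AR1, the receptor of C3a, was at 0.11 FPKM in parental and 0.14 in resistant cells, with 25 and 34 counts. C5AR1, the receptor of C5a, was at 0.09 and 0.13 FPKM, with 17 and 26 counts. Their folds were 1.34 (0.776 to 2.34) and 1.51 (0.787 to 2.96), so at this depth a difference of either was not detectable beyond counting error. C5AR2, a listed receptor that is not a member, is named after its value was seen. It was at 0.19 and 0.10 FPKM with 87 and 45 counts, 1.96-fold lower in resistant cells (1.35 to 2.88). C1QBP, a mainly mitochondrial protein first described as a binder of the C1q globular heads, was abundant and nearly level: 44.8 FPKM in parental and 43.3 in resistant cells. Its 6974 and 6863 counts gave a fold of 0.970 (0.938 to 1.00). C1QBP shares 100 bases with RPAIN, on the opposite strand, which was at 1.32 and 1.77 FPKM. An annotated gene without a symbol shares 100 bases with C1QBP on the same strand and had 111 and 145 counts.

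The followed regulators were at or near the limit of detection. CR1, a surface receptor for C3b that limits the cascade, had 0 parental and 11 resistant counts. A count of 0 allows up to 3 counts, and against that floor CR1 was 3.61-fold higher in resistant cells, at a listed level of 0.01 FPKM. With the counting error of the 11 counts included, the lower limit of its interval was 2.47. CLU, the secreted chaperone clusterin that blocks the terminal complex, was at 0.14 FPKM in parental and 0.07 in resistant cells. Its 63 and 33 counts made it 1.94-fold lower (1.25 to 3.05). Both levels of each gene are far below 1 FPKM.

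**Figure D2:**
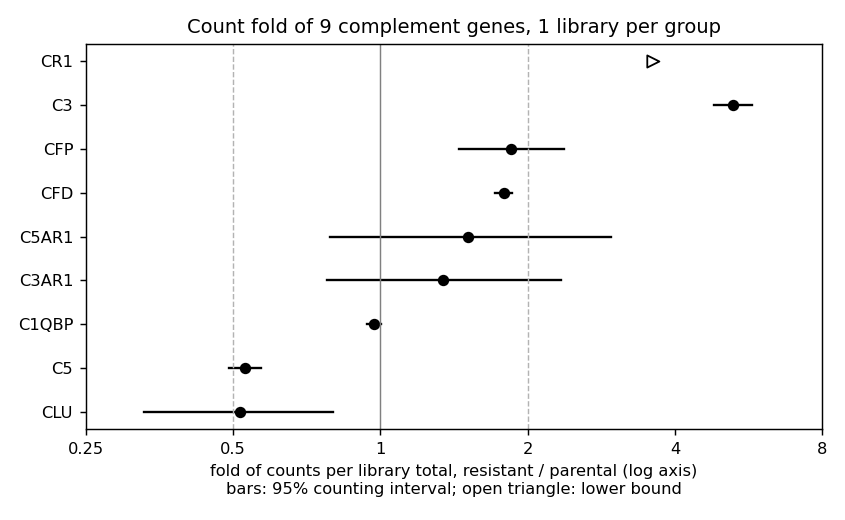
Resistant over parental fold of the counts, each taken as a share of its library, for the 9 members on a log axis. Bars are 95% counting intervals from 1 library per group, and dashed lines mark 2-fold. The open triangle for CR1, labelled a lower bound, takes 3 counts for its parental 0 and leaves out the counting error of its resistant counts. The interval of C3 and the triangle of CR1 lie above 2, while the intervals of C3AR1, C5AR1 and C1QBP include 1.

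Ranked by level, the members kept a similar order in both libraries apart from C3 and C5, CFD and C1QBP, and CLU. In parental cells C1QBP and CFD were first with counting intervals that overlap (43.7 to 45.8 and 42.7 to 45.6 FPKM). C5, C3 and CFP followed, each apart from the next by its interval. CLU, C3AR1 and C5AR1 came next, with overlapping intervals between neighbours, and CR1 was listed at 0. In resistant cells the order was CFD, C1QBP, C3, C5 and CFP, each apart from the next. C3AR1, C5AR1 and CLU followed, again with overlapping intervals between neighbours, and CR1 was last. Of the summed FPKM of the 9 members, C3 made up 1.11% in parental and 4.26% in resistant cells, CFD 46.4% and 60.1%, C5 4.66% and 1.79%, and C1QBP 47.1% and 33.1%.

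Against all genes, the members can be placed as follows. The minimum of 1 FPKM was met by 4 of the 9 (C3, CFD, C5 and C1QBP), each in both libraries. Of these, 1 (C3) was at least 2-fold higher and 0 were at least 2-fold lower. Over all 11388 expressed genes, 0.632% were at least 2-fold higher, 1.23% at least 2-fold lower, and 1.86% either way. These percentages are given as background only, since C3 was chosen on the same comparison. C3 had the 19th highest log2 ratio and CFD the 155th highest, whereas C5 had the 367th lowest. For 3 of the 4, equal levels lay outside the counting interval. The same held for 72.8% of all expressed genes, so at this depth an interval that excludes equality does not set a gene apart. The median log2 ratio of the 4 was 0.39, and that of all expressed genes was -0.02.

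**Figure D3:**
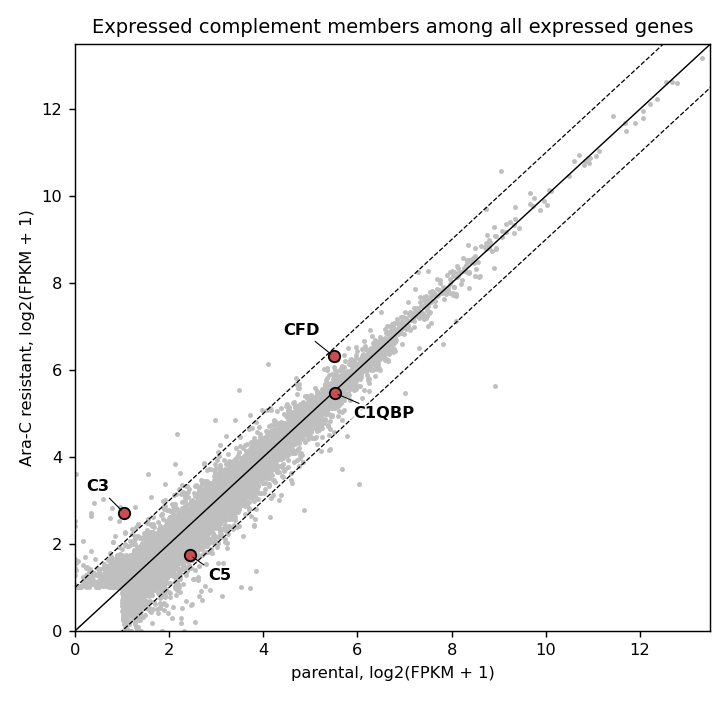
Each grey point is 1 of 11388 expressed genes at its log2(FPKM + 1) in the parental (x axis) and resistant (y axis) library; the solid line marks equal values and the dashed lines 2-fold on this scale. C3 lies above the upper dashed line, CFD just inside it, C1QBP on the line of equality, and C5 below that line.

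The genes whose pair of levels was nearest to that of C3 were found by Euclidean distance in log2(FPKM + 1) over the 2 libraries, among protein-coding genes. They were STMN3 (1.05 FPKM in parental and 5.48 in resistant cells), TMEM119 (1.06 and 5.74), UPK3BL1 (0.95 and 6.25), CCL23 (1.40 and 6.16) and GAPT (0.73 and 6.14). UPK3BL1 has near-identical copies, so its counts are uncertain. Their distances ran from 0.02 for STMN3 to 0.27 for GAPT. STMN3 binds tubulin, and CCL23 is a chemokine of myeloid cells. With 2 libraries, such nearness says only that the levels were alike.

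The rest of the complement system was examined in a list of 58 genes in 7 groups, which includes the members. Of these, 40 were matched and 18 were not analysed here. The minimum of 1 FPKM was met by 12 genes, 6 above and 6 below equality. C3 was the only one at least 2-fold higher, against 0.632% of all expressed genes, and 0 were at least 2-fold lower, against 1.23%. The median log2 ratio of the 12 was 0.03. Leaving out the members, 8 expressed genes had a median of -0.01 and a range from -0.59 to 0.99.

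Of the first steps of the classical and lectin pathways, 8 of 9 and 3 of 8 genes were matched, and 1 of each was expressed. C1RL, a protease related to C1R, was the expressed classical gene, at 1.33 FPKM in parental and 1.03 in resistant cells. MASP2, a protease of the lectin pathway, was the expressed lectin gene, at 0.62 and 1.05 FPKM, and reached the minimum in the resistant library alone. C4A and C4B, near-identical copies whose reads cannot be assigned with certainty, together had 286 counts in parental and 302 in resistant cells. C1R, singled out after its value was seen, had 37 and 123 counts (3.28-fold higher, 2.25 to 4.87), but was at 0.09 and 0.30 FPKM. C1R also shares 2907 bases with C1RL on the same strand, and C1RL had 444 counts in parental and 353 in resistant cells. C1RL was thus lower where C1R was higher (0.783-fold, 0.679 to 0.903). Whether counts of these 2 genes were assigned differently in the 2 libraries was not tested.

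Factor B (CFB), the substrate of CFD, had 35 counts in parental and 0 in resistant cells. C2, its relative in the classical pathway, had 23 and 0. Another annotated gene overlaps both on the same strand and had 0 in parental and 14 in resistant cells, so counts of these genes may have been assigned differently in the 2 libraries. Summed over the 3 genes there were 58 counts in parental and 14 in resistant cells, which is 4.20-fold lower (2.32 to 8.16). CFB was thus at 0.11 FPKM in parental cells and listed at 0 in resistant cells, where CFD, the enzyme that cuts it, was at 44.1 and 78.6 FPKM.

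Membrane regulators that protect the cell's own surface were led by CD46, a cofactor for the cleavage of C3b, at 11.5 FPKM in parental and 12.97 in resistant cells. CD55, which speeds the decay of the C3-cleaving enzymes, was at 1.69 and 1.36. CD59, which blocks the membrane attack complex, stayed below 1 FPKM, at 0.87 and 0.24, and is named after its value was seen. Its 613 and 178 counts made it 3.49-fold lower in resistant cells (2.95 to 4.15). Of 14 soluble regulators, 7 were matched and 0 reached 1 FPKM. Among them SERPING1, VTN and C4BPA had 0 counts in both libraries, where each may have reached 3 counts.

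Of the complement receptors, 5 were expressed. CD93, a surface glycoprotein once described as a C1q receptor, was at 16.7 FPKM in parental and 34.1 in resistant cells (2.05-fold by counts, 1.99 to 2.11). Its log2 ratio of 0.99 fell just short of the 2-fold rule. ITGB2, the beta chain shared by complement receptors 3 and 4, was at 41.5 and 27.3 FPKM (1.51-fold lower). Its alpha chains were ITGAM, at 3.06 and 2.70 FPKM, and ITGAX, at 4.16 and 4.58. The shared chain and ITGAM (1.13-fold lower, 1.04 to 1.23) were thus lower in resistant cells, and ITGAX was higher (1.10-fold, 1.04 to 1.17). All stayed within the 2-fold rule.

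**Figure D4:**
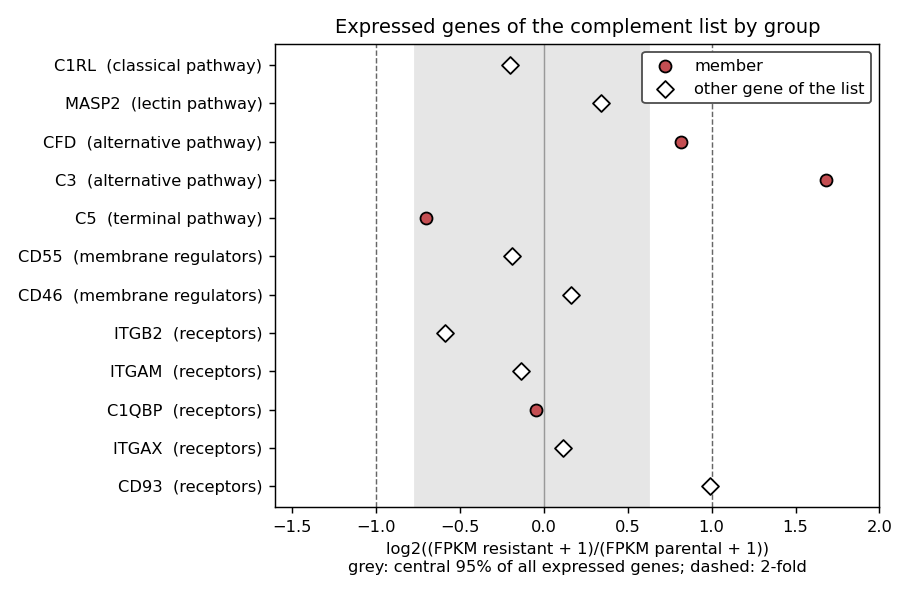
Log2 ratio, resistant over parental, of the 12 expressed genes of the complement list, ordered by group; red circles are members, open diamonds other genes, the grey band spans the central 95% of all expressed genes (-0.77 to 0.63) and dashed lines mark 2-fold. C3, CFD and CD93 lie above the band, and 0 of the 12 lie below it.

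C3 and C5 can also be cut by proteases other than the complement enzymes. Of 10 such proteases, 9 were matched and 7 expressed. Their median log2 ratio was 0.56, against -0.02 for all expressed genes, with 5 above equality, and 0 passed the 2-fold rule in either direction. Of all 11388 expressed genes, 5277 lay above equality and 1.86% passed that rule. The lysosomal cathepsin CTSL, known to cut C3 inside cells, was at 24.9 FPKM in parental and 50.3 in resistant cells (log2 ratio 0.99). The granule protease CTSG was at 155 and 306 FPKM (0.97). Both genes differed in the same direction as C3 and CFD. The 2 below equality were CTSB, at 14.9 and 9.52 FPKM (-0.60), and PRTN3, at 331 and 299 (-0.15).

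Transcription factors reported to act on the C3 promoter lay on both sides of equality. Whether any of them acted on C3 here was not tested. Of 12 on the list, 11 were matched and expressed, with 4 above and 7 below equality and a median of -0.11. Over all expressed genes, 53.3% lay below equality, 1.86% were at least 2-fold apart, and the median was -0.02. FOS, a subunit of AP-1, was the only one at least 2-fold apart, at 16.7 FPKM in parental and 5.15 in resistant cells (3.23-fold lower by counts, 3.02 to 3.46). Its partner JUN was at 5.35 and 2.72 FPKM (log2 ratio -0.77). The C/EBP genes, named after their values were seen, were nearly level: CEBPA had a log2 ratio of 0.02, CEBPB of 0.13 and CEBPD of -0.11.

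C3 and CFD stood above the expressed genes next to them. As C3 was chosen on this same comparison, and C3 and CFD ranked 19th and 155th of all expressed genes, this is a description only. The 5 nearest expressed genes on each side of C3 had a median log2 ratio of -0.08 and a range from -0.50 to 0.31. Those of CFD, on chromosome 19 from 859664 to 863641, had a median of 0.03 and a range from -0.27 to 0.32. They include ELANE (0.32), PRTN3 (-0.15) and AZU1 (0.09), the neutrophil granule genes beside CFD, named for their place. Of the 10 around C5, on chromosome 9 from 120952335 to 121050275, 8 were below equality, as were 53.3% of all expressed genes, and their median was -0.24. DAB2IP, the only one of them at least 2-fold apart, stood at -1.41, a value seen before it was named. The medians around the remaining 6 members lay between -0.11 and 0.06.

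**Figure D5:**
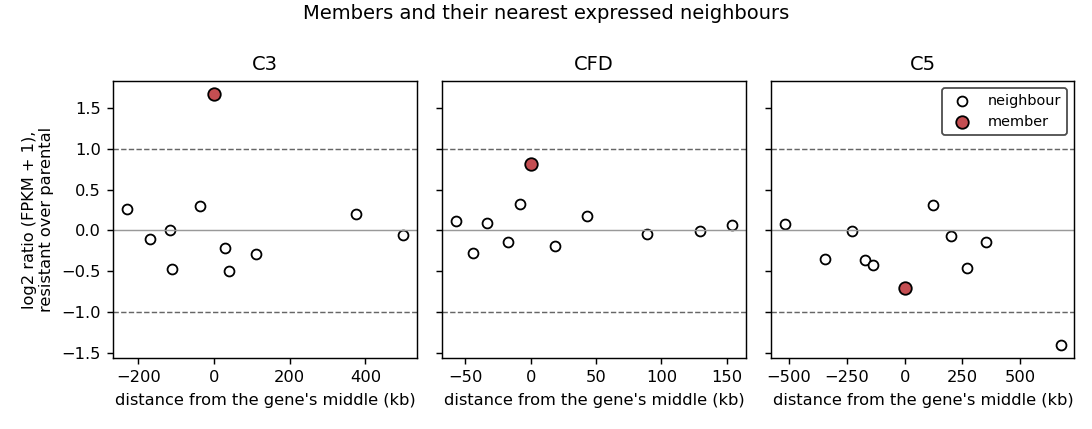
Log2 ratio, resistant over parental, of C3, CFD and C5 (red) and of the 5 nearest expressed genes on each side (open circles) against the distance between gene middles in kb; dashed lines mark 2-fold. C3 and CFD lie above all 10 of their neighbours, whereas 8 of the 10 neighbours of C5 lie below 0 and 1 of them at least 2-fold lower.

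The monocytic label of the cells was checked against markers. Of 10 monocyte and macrophage markers, 9 were expressed, and their summed level was 351 FPKM in parental and 230 in resistant cells. The lysozyme gene LYZ (225 and 95.8) was the only expressed one at least 2-fold apart. Without it the sum was 126 and 134 FPKM. Of the 9 expressed, 2 lay above equality, FCGR1A at 29.6 and 41.2 FPKM and CD4 at 22.0 and 28.3. The other 7 lay below it, as did 53.3% of all expressed genes. Among the 7 was CSF1R, at 12.2 and 7.74 FPKM (1.57-fold lower by counts, 1.49 to 1.64). The defining marker CD14 was near 0, at 0.50 and 0.03 FPKM. Its 56 and 4 counts made it 14.2-fold lower in resistant cells (5.25 to 54.0). As these are bulk samples, fewer cells of a type and less RNA per cell cannot be told apart. The summed hepatocyte markers were at 0.18 and 0.50 FPKM, with ALB at 0.06 and 0.02 and APOA1 at 0 and 0.33 (0 and 25 counts), and the fibroblast and epithelial markers summed to 0.19 and 0.37. The neutrophil markers summed to 368 and 454 FPKM, nearly all from ELANE, with MMP8 at 0 counts in both libraries. Of the 4 expressed neutrophil markers, ELANE was the 1 above equality and 3 were below. MPO was the lowest of them, at 2.81 and 0.94 FPKM (2.97-fold lower by counts, 2.55 to 3.47). The B and plasma cell markers summed to 1.18 and 1.19, the T and natural killer cell markers to 16.8 and 16.5, nearly all from NKG7 (11.3 and 10.5) and NCAM1 (5.47 and 5.98), with CD2 and CD8A at 0 counts, and the erythroid and megakaryocyte markers to 1.35 and 0.73. The part of these marker differences in those of C3 and CFD was not tested. The markers named here were picked after their values were seen.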

How the data were processed

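Poly(A) RNA of 2 libraries was compared, 1 of parental and 1 of Ara-C-resistant THP-1 cells, grouped by their titles. The submitters' processing notes name StringTie 1.3.4d, HISAT2 2.0.4, cutadapt 1.9, edgeR and DESeq2 and the build GRCh38, without role or order. Annotation release and strand setting are not given in the sources used here. Per the labels' protocols the libraries keep strand. The deposited FPKM values are the authors' level per transcript length and library size, with 2 decimals. The deposited counts are raw counts per gene. The planned design foresaw FPKM only, and counts were added for depth and intervals. The suffix of the resistant count column is unexplained; over 10656 genes its ratios differed from those of FPKM by a constant (median -0.025, SD 0.0026).

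Genes with a symbol and at least 1 FPKM in 1 library entered. The measure was the log2 ratio on FPKM with a pseudocount of 1, so that ratios of low genes are understated. Count folds use library totals and exact 95% Clopper-Pearson intervals, and levels use Poisson intervals. Read pairs without molecular identifiers are not independent molecules, so these cover counting error at most. No test between groups is possible. Members and lists were chosen with earlier results of these data known. Named genes were the members, list genes at least 2-fold apart, and the 3 expressed genes of each group (2 in other lists) with the largest absolute ratio. Any other list gene was named after its value was seen, among them CFB, C2, C4A, C4B, SERPING1, VTN, C4BPA and ITGAX. Of the deposited gene IDs, 30027 matched GENCODE 29, and 99.9% of these lay at the same place and strand. Some list genes are not reported here. The log2 ratio and the counting interval were tested on simulated counts of expressed genes. The simulation held counting error only, and did not cover overlaps, neighbours or promoter windows. Alternatives covered pseudocount, filter, scaling, size rule and overlapping genes. The tools were R 4.3.3 with edgeR 4.0.16 and DESeq2 1.42.0, and Python 3.11.15 with scipy 1.17.1, pandas 2.3.3, numpy 2.4.6 and matplotlib 3.10.9.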

Additional observations from a re-analysis of the deposited data

How the results depend on the processing

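C3 stayed higher and C5 lower in resistant cells under every alternative run, and CFD kept a log2 ratio between 0.77 and 0.85. The size of the C3 and C5 ratios depended on the pseudocount. With 0.1 FPKM the log2 ratios were 2.30 for C3, -0.89 for C5, 0.70 for CFP and 0.14 for CR1. With 5 FPKM they were 0.81 for C3, -0.36 for C5 and 0.0029 for CR1. With CPM plus 1, scaled by TMM factors, the library total or size factors, C3 stood at 2.31, 2.28 and 2.30, C5 at -0.85, -0.88 and -0.86, CFP at 0.65, 0.63 and 0.64, and CR1 at 0.252, 0.249 and 0.251. Centred on the median gene, CR1 stood at 0.033. Ratios of counts without a pseudocount, an alternative chosen after seeing the data, gave 2.39 for C3, -0.92 for C5, 0.88 for CFP and -0.95 for CLU. The sum of C3 and GPR108 had a log2 ratio of 0.38 on FPKM, and the summed counts were 1.92-fold higher. In parental cells GPR108 was at 8.50 FPKM and C3 at 1.05, so this ratio describes both genes together and not C3 alone. Only C3, CFP and C1QBP have genes overlapping on the same strand, so the sum was made for these.

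The members at least 2-fold higher numbered 0 with 5 FPKM and 2 with a 1.5-fold rule, which 1 member passed as lower. In the complement list, 0 were higher with 5 FPKM and 2 (C3 and CD93) with 0.1 FPKM, median centring, each count scaling and no pseudocount; with the 1.5-fold rule 3 were higher and 2 lower. The median of the members was 0.038 without a filter and 0.82 with a minimum of 5 FPKM, and that of the complement list 0.49 with that minimum.

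Over all genes, 226 were higher and 366 lower with 0.1 FPKM, 14 and 16 with 5 FPKM, 126 and 248 with TMM, 112 and 263 with library totals, 122 and 249 with size factors, 36 and 53 with a minimum of 5 FPKM, 334 and 543 with the 1.5-fold rule, and 234 and 391 without a pseudocount, against 72 and 140. Depth limits C3AR1, C5AR1, CLU and CR1, which had at most 63 counts in either library. No paired analysis was possible because each group has 1 library.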

Other observations

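Genes that the table's own annotation places in the complement and coagulation cascades, a list added after the data were seen, also cover coagulation. Of 59 such genes, 17 were expressed, with C3 the only one higher by at least 2-fold and THBD the only one lower, against 0.632% and 1.23% of all expressed genes. THBD, the thrombin cofactor thrombomodulin, was at 41.3 FPKM in parental and 16.7 in resistant cells, 2.46-fold lower by counts (2.38 to 2.55). PROCR, the receptor of protein C, was at 11.8 and 16.2 FPKM, and tissue factor F3, which starts coagulation, at 3.64 and 5.54 (1.53-fold higher, 1.39 to 1.69). The urokinase gene PLAU was at 9.52 and 14.5 FPKM (1.53-fold higher, 1.44 to 1.62).

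Of 71 genes whose ontology terms name complement, 19 were expressed, with 3 at least 2-fold higher (0.632% of all expressed genes) and 0 lower by that rule (1.23%). Besides C3 these were MFAP4, an extracellular matrix protein, at 0.75 FPKM in parental and 3.09 in resistant cells, which reached the minimum in the resistant library alone, and RGCC, a cell cycle regulator named for its response to complement, at 3.59 and 8.57. All genes of both paragraphs were named after their values were seen.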
